A study of Mus musculus with 12 samples.

Results

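The genes described here are 62 members of the Wnt pathway among the 24525 genes of the deposited count tables. They were picked by symbol: every Wnt ligand, every numbered Fzd receptor, every Sfrp, Dkk, Dvl and Rspo gene, and in addition Lrp5, Lrp6, Axin1, Axin2, Apc, Gsk3b, Tcf7, Tcf7l1, Tcf7l2, Lef1, Wif1, Lgr4, Lgr5, Lgr6, Znrf3, Rnf43, Nkd1 and Nkd2. By role they are 19 ligands, 12 receptors and co-receptors, 9 secreted inhibitors, 9 genes of the R-spondin axis, 6 cytoplasmic components, 4 nuclear factors and 3 feedback genes.

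The RNA came from neurospheres, floating cultures of neural stem/progenitor cells (NSPCs), grown from the brains of C57BL/6 mouse embryos at E14.5 with EGF and bFGF and labelled passage P1. There were 3 wild-type and 3 Ythdf2-/- cultures, all without treatment. Ythdf2 is a reader protein that binds mRNA carrying N6-methyladenosine (m6A) and promotes its decay. In the Ythdf2-/- embryos, LoxP sites around the first exon had been recombined by a Cre expressed throughout the body, and heterozygous carriers were then intercrossed, so the deletion was carried by the whole embryo and not by NSPCs alone. The other cultures were labelled wild type, with no targeted allele named. How many embryos made up each culture is not given in the sources used here. The mRNA was fragmented, and the libraries used here come from the share kept out of the m6A antibody pull-down. The 6 m6A-IP samples were not analysed here.

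Wnt proteins are lipid-modified secreted ligands. In the canonical branch a Wnt binds a Fzd receptor together with Lrp5 or Lrp6, Dvl proteins are recruited, and the destruction complex of Axin, Apc and Gsk3b stops marking β-catenin for degradation, so that β-catenin enters the nucleus and acts with Tcf/Lef factors. Several target genes then damp the signal, among them Axin2, Nkd1, Znrf3 and Rnf43, while R-spondins acting through Lgr4, Lgr5 and Lgr6 remove the Znrf3 and Rnf43 ligases from the membrane. In the embryonic forebrain the pathway is known for patterning the dorsal midline and for keeping cortical progenitors dividing, and in the glial lineage for holding back the maturation of oligodendrocyte precursors.

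Upstream sequence is shown for 3 members. Wnt4 and Fzd7 are the 2 members above a mean of 1 CPM (reads of a gene per 1000000 counted reads, after scaling with TMM factors) that had an unadjusted p under 0.05 in the genotype comparison, and Axin2 is the most widely used target gene of the canonical branch. Each line gives the 250 bases before a RefSeq start site in GRCm38.p6 (mm10), on the strand of the gene and 5′ to 3′, with a Tcf/Lef motif in capitals. The Wnt4 line is chr4:137277385-137277634, the Fzd7 line chr1:59481897-59482146 and the Axin2 line chr11:108920099-108920348, all on the plus strand. The Axin2 start site lies inside the annotated gene, which runs from 108917828 to 108950783.
Wnt4: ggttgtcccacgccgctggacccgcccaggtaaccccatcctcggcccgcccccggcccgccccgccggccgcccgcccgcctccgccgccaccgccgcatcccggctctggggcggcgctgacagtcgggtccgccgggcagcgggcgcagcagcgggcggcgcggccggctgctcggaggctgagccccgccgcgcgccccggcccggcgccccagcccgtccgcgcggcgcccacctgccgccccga
Fzd7: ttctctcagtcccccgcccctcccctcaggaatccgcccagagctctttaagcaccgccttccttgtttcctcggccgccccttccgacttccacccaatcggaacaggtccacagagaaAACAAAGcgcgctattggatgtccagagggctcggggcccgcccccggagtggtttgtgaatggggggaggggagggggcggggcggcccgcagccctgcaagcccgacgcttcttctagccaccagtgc
Axin2: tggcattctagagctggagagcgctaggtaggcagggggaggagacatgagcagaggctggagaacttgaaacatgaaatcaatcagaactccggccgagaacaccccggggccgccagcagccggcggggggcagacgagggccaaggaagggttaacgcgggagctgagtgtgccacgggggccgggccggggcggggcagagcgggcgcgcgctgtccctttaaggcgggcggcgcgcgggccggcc

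The motif searched was CTTTG followed by 2 letters that are each A or T, on either strand, in RefSeq windows from 250 bases before to 50 bases after a start site. The Fzd7 line holds 1 match, which reads AACAAAG on the gene's strand and begins 130 bases before the start site. The Wnt4 and Axin2 lines hold none, and the Wnt4 line is 85.2% G and C against 65.2% for Fzd7 and 69.2% for Axin2. Of the 62 members, 42 had a window in the table, and 7 of them held the motif in at least 1 window (16.7%), namely Dkk1, Fzd7, Lef1, Tcf7l2, Wnt11, Wnt3 and Wnt5b. Over all 27025 genes in the table the share was 18.9%, so the letters were about as frequent in the members as elsewhere.

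The 6 libraries held 11029827 to 13185778 counted reads. For Ythdf2 itself, wild type gave 840, 961 and 999 reads and Ythdf2-/- gave 137, 198 and 138. Of the NSPC markers, 10 of 10 had at least 10 reads in every library, with Nes, the intermediate filament nestin, at 264 to 1212 CPM. Microglial markers summed to 0.805 to 1.54 CPM and endothelial markers to 1.007 to 3.51 CPM, and C1qa, Ptprc and Cldn5 were at 0 in every library. Wild-type replicate 3 stood apart from the other 5 libraries. A chi-square over genes, where sampling noise alone gives 1 per degree of freedom, was 4.57 between wild-type replicates 1 and 2, 140 and 136 between each of them and wild-type replicate 3, and 22.5 to 56.5 between Ythdf2-/- replicates. The 11 oligodendrocyte lineage markers summed to 4502 CPM in wild-type replicate 3 and 1643 to 1918 CPM elsewhere, with 7 of them highest of the 6 libraries there and 3 (Olig1, Olig2 and Cspg4) lowest. The 8 astroglial markers summed to 7838 CPM there and 1647 to 3796 CPM elsewhere, with 4 highest and 1 lowest, and the 10 neuronal markers to 2146 CPM against 1289 to 1513 CPM, with 6 highest and 1 lowest. The 10 progenitor markers summed to 5341 CPM there against 7955 to 9179 CPM, but 6 of them, Sox2 and Pax6 included, were highest in that library and 3, Nes, Vim and Fabp7, lowest. Values without that library are therefore given beside many of the results that it moved, and for every tested member in the plot of log2 fold changes. Between genotypes, Gfap, the astroglial filament gene, was at 437, 625 and 3046 CPM in wild type and 127, 87.7 and 5.55 CPM in Ythdf2-/-, and the progenitor marker Prom1 at 5.39, 5.42 and 17.9 CPM and 1.88, 2.295 and 1.13 CPM, both with no overlap. They were the only 1 of the 8 astroglial and the only 1 of the 10 progenitor markers without overlap. Of the 10 neuronal markers 1 was also lower, where 4.92% of all genes tested were. Of the oligodendrocyte lineage markers 4 were lower and 2 higher in every Ythdf2-/- library than in any wild-type library. The part of these markers in the members' values was not tested. In bulk RNA, a change in the share of a cell type and a change in RNA per cell cannot be told apart.

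The members' levels ranged widely. Between genes, levels are compared as CPM per kilobase of exon, averaged over the 6 libraries. The highest was Apc, the scaffold of the destruction complex, at 48.9, followed by Gsk3b, its kinase, at 32.0, and the receptor Fzd3 at 28.0. The ligand Wnt7b came next at 26.9, ahead of Fzd9 at 23.4, Dvl1 at 19.5 and the ligand Wnt7a at 17.1. Over the 6 libraries Apc, at 42.1 to 61.0, lay above the range of Gsk3b, at 25.1 to 40.7. From Gsk3b on, the ranges of these neighbours in the order overlapped, with Fzd3 at 24.2 to 32.4 and Wnt7b at 19.6 to 44.2. At least 100 reads in every library were seen for 23 members and at least 10 for 36.

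**Figure D1:**
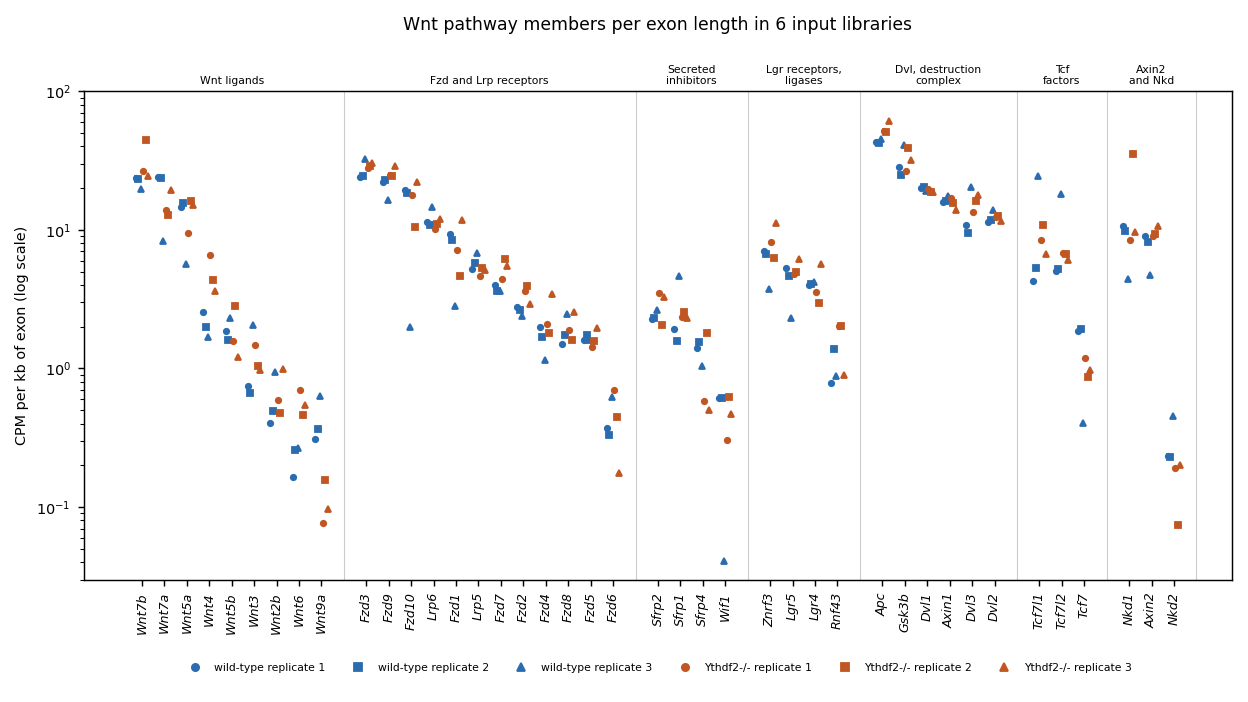
Level of each of the 41 tested members in the 6 input libraries, as CPM per kb of exon on a log axis, grouped by role and ordered by mean within a role; symbols give genotype and replicate. Levels run from Apc at 42.1 to 61.0 down to Wnt9a and Nkd2 below 1, and wild-type replicate 3 (blue triangles) lies away from the other points for Fzd10, Wif1, Tcf7l1 and Tcf7l2.

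Of the 62 members, 41 passed the filter on low counts and were tested among 13112 genes. The other 21 had at most 104 reads over the 6 libraries together. They are the ligands Wnt1, Wnt2, Wnt3a, Wnt8a, Wnt8b, Wnt9b, Wnt10a, Wnt10b, Wnt11 and Wnt16, the inhibitors Dkk1, Dkk2, Dkk3, Dkk4 and Sfrp5, all 4 R-spondins, Lgr6 and Lef1. Wnt3a, Wnt8a, Wnt9b and Wnt10b had no read in any library, and a count of 0 allows up to 0.228 to 0.272 CPM at these depths, counting error only. Lef1, the Tcf/Lef factor that is itself a target of the pathway, had 5, 8 and 1 reads in wild type and 11, 0 and 2 in Ythdf2-/-. The R-spondin with the most reads in any library was Rspo1, with 4, 8 and 5 reads in wild type and 7, 4 and 23 in Ythdf2-/-. Dkk3, a divergent member of the Dickkopf family, had 64 reads in wild-type replicate 3, 26 in Ythdf2-/- replicate 2 and 0 to 6 in the other 4 libraries. These genes were left out of the comparison of genotypes with all 6 libraries because of their low counts.

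In the comparison of Ythdf2-/- with wild type, 0 of the 41 members passed an adjusted p of 0.05 in edgeR's quasi-likelihood test, where 0% of all genes did. Their adjusted p was 0.999 throughout, and that of the deleted gene, Ythdf2, was 0.0547 in the same test, also above the threshold. At an unadjusted p under 0.05, Wnt4, Wnt6 and Fzd7 were higher in Ythdf2-/- (3 of 41, against 1.81% of all genes) and Wnt9a was lower (1 of 41, against 1.82%). Wnt6, Wnt9a and Nkd2 passed the filter through the counts of 1 genotype alone, so their place in this and the following counts was in part set by the filter. With a filter at a mean of at least 1 CPM over the 6 libraries, which takes no account of genotype, the members at an unadjusted p under 0.05 were 2 higher (against 1.8% of all genes in that fit) and 0 lower (against 1.87%). DESeq2 gave 1 member at an adjusted p under 0.05, Wnt4, where 0.523% of its genes passed. The limma-voom fit with sample quality weights gave 4, namely Wnt4, Wnt6, Wnt7a and Wnt9a, where 5.28% of genes passed. The median log2 fold change of the members was 0.11, with 26 of 41 above 0, while that of all genes tested was -0.01 with 48.1% above 0. A log2 fold change over 1 in size was seen for Wnt4, Wnt6, Nkd1 and Wnt9a (4 of 41, against 3.55% of all genes), of which Wnt6 and Wnt9a are among those that passed through 1 genotype.

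The genotypes did not overlap for 9 of the 41 tested members. Every Ythdf2-/- library was above every wild-type library for 7 of them, where 5.24% of all genes did so, and below for 2, where 4.92% did. The 7 are the ligands Wnt4, Wnt6 and Wnt7b, the receptors Fzd2, Fzd7 and Fzd9, and Apc, and the 2 are Wnt9a and Nkd2. Of the members that were not tested, Dkk2 and Wnt11, a non-canonical ligand, also did not overlap in CPM, both lower in Ythdf2-/-. Dkk2 had 12, 11 and 6 reads in wild type and 5, 3 and 6 in Ythdf2-/-. Its 6 reads in replicate 3 of either genotype were 0.549 and 0.483 CPM, so only the scaling set them apart. Wnt11 had 1, 1 and 10 reads in wild type and 0 in all 3 Ythdf2-/- libraries. The share of such genes among all that were not tested was not computed, so no meaning is drawn from these 2. Among the 38 members with a mean of at least 1 CPM over the 6 libraries, of which Dkk3 was not tested, 6 lay above (against 5.26% of such genes) and 0 below (against 4.96%). Of these 6, Apc, Fzd9 and Fzd2 differed by 1.24-, 1.27- and 1.34-fold, Fzd7 by 1.42-fold, Wnt7b by 1.44-fold and Wnt4 by 2.33-fold.

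**Figure D2:**
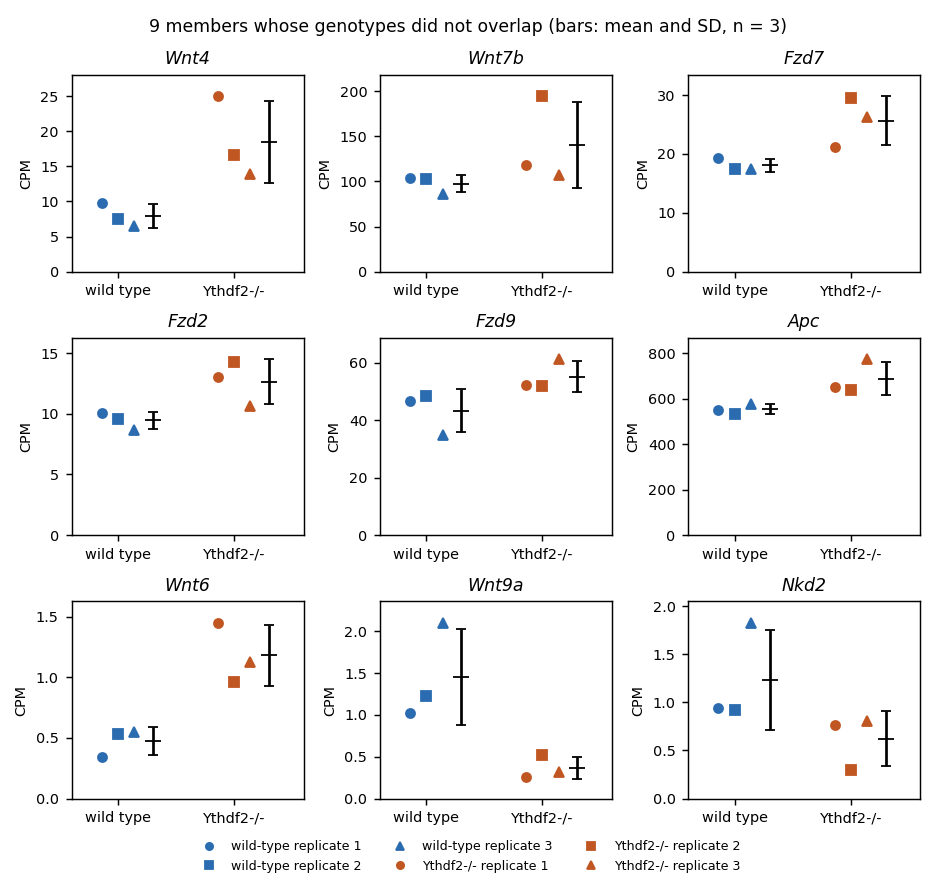
CPM of the 9 tested members whose genotypes did not overlap, in each library, with the mean and SD (n = 3) of each genotype beside the points; each panel has its own linear axis from 0. Wnt4 lies at 6.498 to 9.76 CPM in wild type and 13.8 to 25.1 CPM in Ythdf2-/-, while in Wnt7b Ythdf2-/- replicate 2, at 195 CPM, lies far above the other 5 libraries.

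Among the ligands above a mean of 1 CPM, Wnt4 had the largest log2 fold change. Wnt4 is a ligand best known from kidney and gonad development, and it lies on the plus strand of chromosome 4 from 137277635 to 137299501. It was at 9.76, 7.56 and 6.498 CPM in wild type and at 25.1, 16.7 and 13.8 CPM in Ythdf2-/-, in the order of the replicates 1, 2 and 3, as for the genes that follow. The lowest Ythdf2-/- library was thus above the highest wild-type library. The means were 7.94 ± 1.66 and 18.5 ± 5.84 CPM (SD, n = 3), a 2.33-fold difference, with a log2 fold change of 1.22 (standard error 0.30, unadjusted p = 0.00553, adjusted p = 0.999 by edgeR). Leaving out each library in turn kept the log2 fold change between 0.95 and 1.40. DESeq2 gave an adjusted p of 0.0188 for the same gene.

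Wnt6 and Wnt9a rest on few reads. Wnt6, a ligand known from epithelia, had 4, 7 and 6 reads in wild type and 17, 13 and 14 in Ythdf2-/-, a log2 fold change of 1.29 (standard error 0.40, unadjusted p = 0.0153). Wnt9a, a ligand known from joint formation, went the other way with 12, 16 and 23 reads in wild type and 3, 7 and 4 in Ythdf2-/-, a log2 fold change of -1.94 (standard error 0.49, unadjusted p = 0.00624). Wnt6 no longer had an unadjusted p under 0.05 when replicate 1 of either genotype was left out, while Wnt9a kept one with each library left out in turn. Both passed the filter only through the genotype in which they had more reads, which favours these directions. Keeping a low p is therefore no support for a difference. Wild-type replicate 3 was the highest library for Wnt9a, and without it the log2 fold change was -1.58.

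The 3 most abundant ligands per exon length, Wnt7b, Wnt7a and Wnt5a, did not share a direction with genotype as the only term and all 6 libraries. In a fit with a term for Y-linked reads, described below, all 3 log2 fold changes were above 0, at 0.46, 0.18 and 0.58. Wnt7b, a canonical ligand of the cortical wall that also directs vessel growth into the brain, was at 103.8, 102.1 and 86.4 CPM in wild type and 118.0, 195.0 and 107.2 CPM in Ythdf2-/-. Its log2 fold change of 0.52 (standard error 0.25, unadjusted p = 0.0792) was 0.22 without Ythdf2-/- replicate 2. Wnt7a, the close relative that acts with Wnt7b on brain vessels, was at 76.5, 75.2 and 26.2 CPM in wild type and 44.1, 40.7 and 60.8 CPM in Ythdf2-/-. Here the genotypes overlapped only through wild-type replicate 3, and the log2 fold change of -0.29 (standard error 0.42) became -0.64 (standard error 0.18, unadjusted p = 0.0109, adjusted p = 0.208) without that library. Wnt5a, the main ligand of the β-catenin-independent branch, was at 92.4, 99.1 and 35.9 CPM in wild type and 60.0, 101.3 and 96.1 CPM in Ythdf2-/-, with a log2 fold change of 0.18 with that library and -0.16 without it. Wnt2b and Wnt3, both canonical ligands, and Wnt5b, the relative of Wnt5a, had mean levels of 2.199 to 5.12 CPM in wild type and log2 fold changes of -0.04 to 0.16. Wnt3 was at 2.31, 2.06 and 6.41 CPM in wild type and 4.61, 3.26 and 3.06 CPM in Ythdf2-/-, so that without wild-type replicate 3 its log2 fold change was 0.73 (standard error 0.31). That of Wnt2b was then 0.61 (standard error 0.42).

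All 12 receptors and co-receptors were tested, 10 with a log2 fold change above 0 and 2 below, with a median of 0.15. Without wild-type replicate 3 the numbers were 8 and 4, with a median of 0.24. The 2 below 0 with all libraries were the co-receptors, Lrp5 at -0.24 and Lrp6 at -0.15. Lrp5 was at 27.0, 29.8 and 35.5 CPM in wild type and 24.0, 27.5 and 26.5 CPM in Ythdf2-/-, with overlap. Lrp6 was at 106.6, 101.6 and 137.3 CPM in wild type and 95.6, 103.6 and 113.1 CPM in Ythdf2-/-, so that the genotypes overlapped, and without wild-type replicate 3 its log2 fold change was 0.0001. The Fzd genes lay above 0 with all 6 libraries, but Fzd1, Fzd5 and Fzd10 were below 0 without wild-type replicate 3, at -0.18, -0.01 and -0.17.

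Fzd7, a receptor of canonical and non-canonical ligands, whose single exon runs from 59482147 to 59486955 on chromosome 1, was at 19.3, 17.4 and 17.5 CPM in wild type and 21.2, 29.5 and 26.3 CPM in Ythdf2-/-. The means were 18.1 ± 1.10 and 25.7 ± 4.24 CPM (SD, n = 3), and the log2 fold change was 0.51 (standard error 0.18, unadjusted p = 0.0267). Leaving out the second wild-type library, or either the second or the third Ythdf2-/- library, took the unadjusted p above 0.05. This is the gene whose upstream window holds the motif printed above.

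Fzd2 and Fzd9 were separated by narrow gaps. Fzd2, a receptor for Wnt5a among others, was at 10.1, 9.62 and 8.70 CPM in wild type and 13.1, 14.3 and 10.6 CPM in Ythdf2-/-, a log2 fold change of 0.42 (standard error 0.20). Fzd9, a receptor expressed in the developing hippocampus, was at 46.7, 48.5 and 34.9 CPM in wild type and 52.4, 52.0 and 61.3 CPM in Ythdf2-/-, a log2 fold change of 0.35 (standard error 0.17) that was 0.21 without wild-type replicate 3. The most abundant receptor, Fzd3, which works in axon guidance and planar polarity, was at 307.7, 310.8 and 412.6 CPM in wild type and 356.9, 366.1 and 388.9 CPM in Ythdf2-/-. The Fzd3 genotypes overlapped through wild-type replicate 3 alone, and the log2 fold change was 0.11 with it and 0.26 (unadjusted p = 0.0421) without it. Fzd4, the norrin receptor of retinal vessels, was at 7.36, 6.18 and 4.21 CPM in wild type and 7.76, 6.59 and 12.7 CPM in Ythdf2-/-, and these overlapped (log2 fold change 0.61, standard error 0.35). Fzd1, another canonical receptor, was at 40.99, 37.2 and 12.4 CPM in wild type and 31.4, 20.4 and 51.9 CPM in Ythdf2-/-, with wild-type replicate 3 the lowest of all 6. Fzd5, Fzd6 and Fzd8 had log2 fold changes of 0.0008 to 0.08, while without wild-type replicate 3 Fzd6 was at 0.32 (standard error 0.58) and Fzd8 at 0.31 (standard error 0.27).

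Fzd10 shows how far 1 library moved a member. It was at 57.6 and 55.0 CPM in wild-type replicates 1 and 2, at 5.95 CPM in wild-type replicate 3, and at 53.0, 31.3 and 65.7 CPM in Ythdf2-/-. The wild-type mean of 39.5 ± 29.1 CPM therefore describes none of its 3 libraries. The log2 fold change was 0.34 (standard error 0.76) with that library and -0.17 (standard error 0.29) without it.

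Of the 9 secreted inhibitors 4 were tested. Sfrp1, which binds Wnt proteins in the extracellular space, was at 8.39, 6.87 and 20.3 CPM in wild type and 10.3, 11.1 and 10.1 CPM in Ythdf2-/-. Wild-type replicate 3 was the highest of the 6 libraries and the other 2 wild-type libraries the lowest, so that the log2 fold change was -0.17 with it and 0.47 (unadjusted p = 0.0447, adjusted p = 0.290) without it. Sfrp2, a relative of Sfrp1, was at 4.54, 4.66 and 5.31 CPM in wild type and 6.99, 4.15 and 6.52 CPM in Ythdf2-/-, with overlap and a log2 fold change of 0.28. Sfrp4, of the same family, varied more within Ythdf2-/- than between genotypes, with 12, 43 and 11 reads there and 29, 36 and 20 in wild type. Wif1, an inhibitor that binds Wnt proteins through its own domain, had 16, 18 and 1 reads in wild type and 8, 19 and 13 in Ythdf2-/-. Dkk2, which blocks Lrp6, was tested without wild-type replicate 3, with 12 and 11 reads in wild type against 5, 3 and 6 in Ythdf2-/-. It passed the filter through the wild-type libraries alone, which favours a lower value in Ythdf2-/-, with a log2 fold change of -1.29 (standard error 0.51, unadjusted p = 0.0399, adjusted p = 0.279).

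In the R-spondin axis, the receptors Lgr4 and Lgr5 and the ligases Znrf3 and Rnf43 were tested, and 3 of the 4 had a log2 fold change above 0, with a median of 0.47. Without wild-type replicate 3 all 4 were above 0, with a median of 0.21. Lgr5, a stem cell marker of the gut that binds R-spondins and is a target of the pathway, was at 24.8, 22.0 and 10.98 CPM in wild type and 22.5, 23.4 and 29.1 CPM in Ythdf2-/-. Its log2 fold change of 0.37 was 0.10 without wild-type replicate 3, the lowest library. Znrf3, a ligase that removes Fzd receptors from the membrane, was at 53.6, 51.3 and 28.7 CPM in wild type and 62.6, 48.4 and 85.9 CPM in Ythdf2-/-, and its log2 fold change of 0.56 (standard error 0.31) was 0.32 without that library. Rnf43, the related ligase, was at 3.59, 6.26 and 4.03 CPM in wild type and 9.21, 9.26 and 4.10 CPM in Ythdf2-/-, with Ythdf2-/- replicate 3 inside the wild-type range. Lgr4 was at 20.2 to 21.1 CPM in wild type and 15.03 to 28.6 CPM in Ythdf2-/-, with a log2 fold change of -0.003. Rnf43 shares 227 exon bases with another gene of the same strand, so its counts are uncertain.

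Among the cytoplasmic components, Dvl1 and Dvl2, which carry the signal from Fzd to the destruction complex, differed by at most 1.08-fold and 1.22-fold over all 6 libraries. Axin1, the scaffold that limits the destruction complex, differed by at most 1.26-fold. Apc was at 549.7, 535.1 and 577.5 CPM in wild type and 652.3, 641.0 and 775.2 CPM in Ythdf2-/-, with no overlap, and its log2 fold change was 0.32 (standard error 0.15, unadjusted p = 0.0824). Without wild-type replicate 3 it was 0.35 (unadjusted p = 0.0440, adjusted p = 0.289). Gsk3b was at 237.8, 209.2 and 339.6 CPM in wild type and 222.7, 324.7 and 265.0 CPM in Ythdf2-/-, with overlap and a log2 fold change of 0.05 that was 0.28 (standard error 0.17) without wild-type replicate 3. Dvl3 was at 52.7, 46.3 and 99.3 CPM in wild type and 64.9, 79.1 and 87.1 CPM in Ythdf2-/-. The 2 other wild-type libraries of Dvl3 lay below every Ythdf2-/- library, and without wild-type replicate 3 its log2 fold change moved from 0.22 to 0.64, with the smallest adjusted p of any member in that fit, 0.181.

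The nuclear factors depended most on wild-type replicate 3. Tcf7l1, which mainly represses target genes, was at 12.3, 15.2 and 70.5 CPM in wild type and 24.2, 31.1 and 19.2 CPM in Ythdf2-/-. Tcf7l2, which in the oligodendrocyte lineage is known to mark cells that are starting to mature, was at 23.2, 24.0 and 84.3 CPM in wild type and 31.6, 31.2 and 28.2 CPM in Ythdf2-/-. In both, the other 2 wild-type libraries were the lowest of all 6 and wild-type replicate 3 the highest. The log2 fold changes were -0.39 and -0.53 with it, and 0.85 (unadjusted p = 0.0109, adjusted p = 0.208) and 0.36 (unadjusted p = 0.0197, adjusted p = 0.234) without it. Tcf7 ran the other way, at 5.14, 5.27 and 1.10 CPM in wild type and 3.24, 2.37 and 2.66 CPM in Ythdf2-/-, with log2 fold changes of -0.48 with that library and -0.92 (unadjusted p = 0.0112) without it.

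The feedback genes, which the pathway switches on to restrain itself, did not move together. Axin2, a second Axin, was at 38.6, 34.6 and 20.2 CPM in wild type and 38.2, 39.6 and 45.5 CPM in Ythdf2-/-. The means were 31.1 ± 9.66 and 41.1 ± 3.85 CPM (SD, n = 3), with overlap, and the log2 fold change of 0.40 (standard error 0.26, unadjusted p = 0.166) was 0.17 without wild-type replicate 3. Nkd1, which binds Dvl and restrains it, was at 47.5, 43.7 and 19.6 CPM in wild type and 37.5, 156.9 and 42.8 CPM in Ythdf2-/-. Its log2 fold change of 1.10 (standard error 0.64) came from Ythdf2-/- replicate 2, and without that library it was 0.13. Nkd2, its low relative, had 11, 12 and 20 reads in wild type and 9, 4 and 10 in Ythdf2-/-, a log2 fold change of -0.97 (standard error 0.54) that was -0.58 without wild-type replicate 3.

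**Figure D3:**
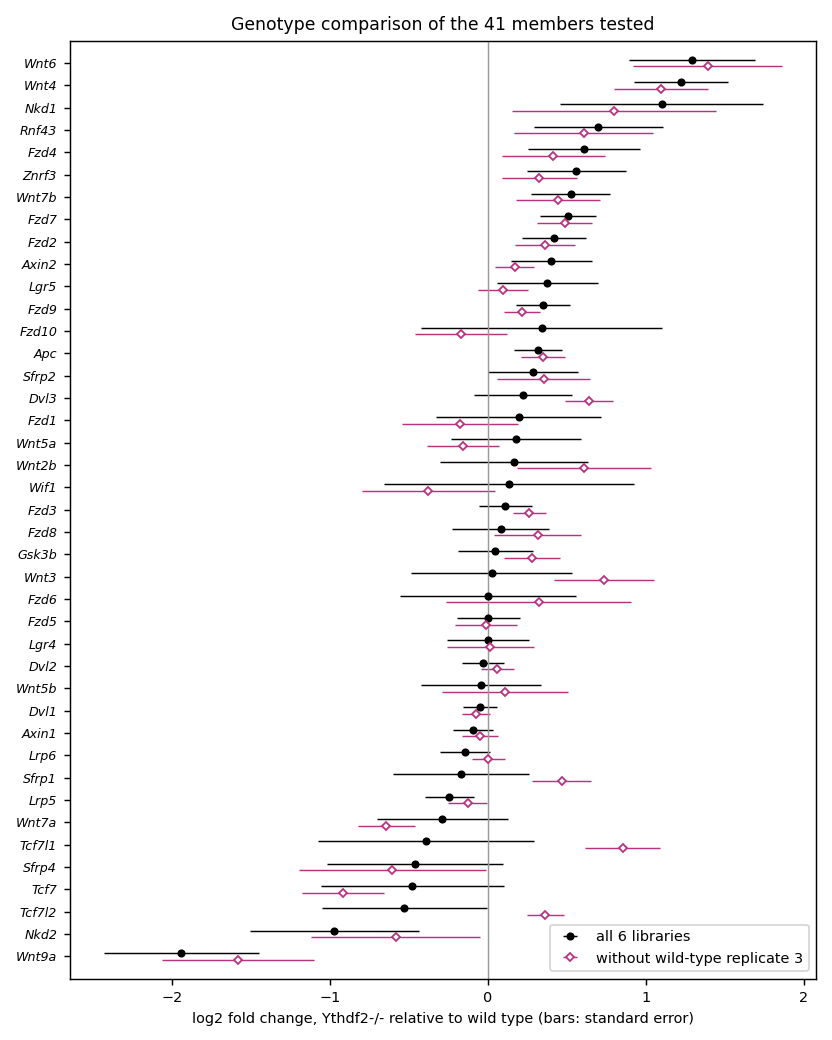
Log2 fold change of Ythdf2-/- relative to wild type for the 41 tested members, with standard error bars, from all 6 libraries (black) and without wild-type replicate 3 (open diamonds), ordered by the value from all 6. Wnt4 stays far from 0 in both, while Tcf7l1, Tcf7l2 and Sfrp1 move from below 0 to above it. Wnt6 and Wnt9a also lie far from 0 in both. These genes passed the filter of each fit only through the genotype in which they had more reads, which favours such values. Their place in the plot is therefore no support for a difference.

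Without wild-type replicate 3, 42 members were tested among 13283 genes. At an unadjusted p under 0.05, 9 were higher in Ythdf2-/- (Apc, Dvl3, Fzd3, Fzd7, Sfrp1, Tcf7l1, Tcf7l2, Wnt4 and Wnt6, against 8.03% of all genes) and 4 lower (Dkk2, Tcf7, Wnt7a and Wnt9a, against 8.58%). Dkk2, Wnt6 and Wnt9a passed the filter of this fit through 1 genotype alone, and among the other 39 members 8 were higher and 2 lower. No member passed an adjusted p of 0.05, against 0.0151% of all genes. The members' median log2 fold change was 0.24, and that of all genes 0.01. All 3 Ythdf2-/- libraries lay above wild-type replicates 1 and 2 for 13 of the 41 members (against 18.9% of all genes) and below both for 5 (against 20%).

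Reads from Y-linked genes were seen in 2 wild-type libraries and 1 Ythdf2-/- library. In a fit with a term for them, 9 members were higher at an unadjusted p under 0.05 (against 5.23% of all genes), namely Axin2, Fzd1, Fzd4, Fzd7, Fzd9, Lgr5, Wnt4, Wnt6 and Znrf3, and Wnt9a was lower (against 5.72%), while none passed an adjusted p of 0.05 (against 0.0991%). In that fit the log2 fold change was 0.62 for Axin2, 0.68 for Lgr5, 0.83 for Znrf3 and 1.44 (standard error 0.67) for Fzd10, all larger than without the term. Without wild-type replicate 3 the same genes were at 0.17, 0.10, 0.32 and -0.17. With Y-linked reads in 2 wild-type libraries and 1 Ythdf2-/- library, the term rests on few libraries. It turned the log2 fold change above 0 for Wnt7a (0.18), Tcf7 (0.06) and Lgr4 (0.07). Below 0 were then Wnt3 (-0.14), Fzd6 (-0.49) and Gsk3b (-0.03), which had been above it.

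Members sat at the edge in wild-type replicate 3 about as often as other genes did. That library was the highest of the 6 for 13 of 41 members, against 33.8% of all genes, and the lowest for 15, against 34.4%. It lay 2-fold or more above the median of the other 5 libraries for Tcf7l1, Tcf7l2, Sfrp1, Wnt3, Wnt9a and Nkd2 (6 of 41, against 10.4%). It lay 2-fold or more below for Fzd1, Fzd10, Lgr5, Nkd1, Tcf7, Wif1, Wnt4, Wnt5a and Wnt7a (9 of 41, against 11.8%). A distance of 4-fold or more was seen for Fzd10, Wif1 and Wnt9a (3 of 41, against 7.28%). In the same library, which was the lowest of the 6 for Olig1 and Olig2, Mbp, myelin basic protein, had 6262 reads against 15 to 116 elsewhere, Enpp6, a marker of newly forming oligodendrocytes, had 3679 against 2 to 53, and Ccnd1, the cyclin D1 gene and a known target of the pathway, was at 27.9 CPM against 679 to 1986 CPM. The part of these differences in the members' values was not tested.

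**Figure D4:**
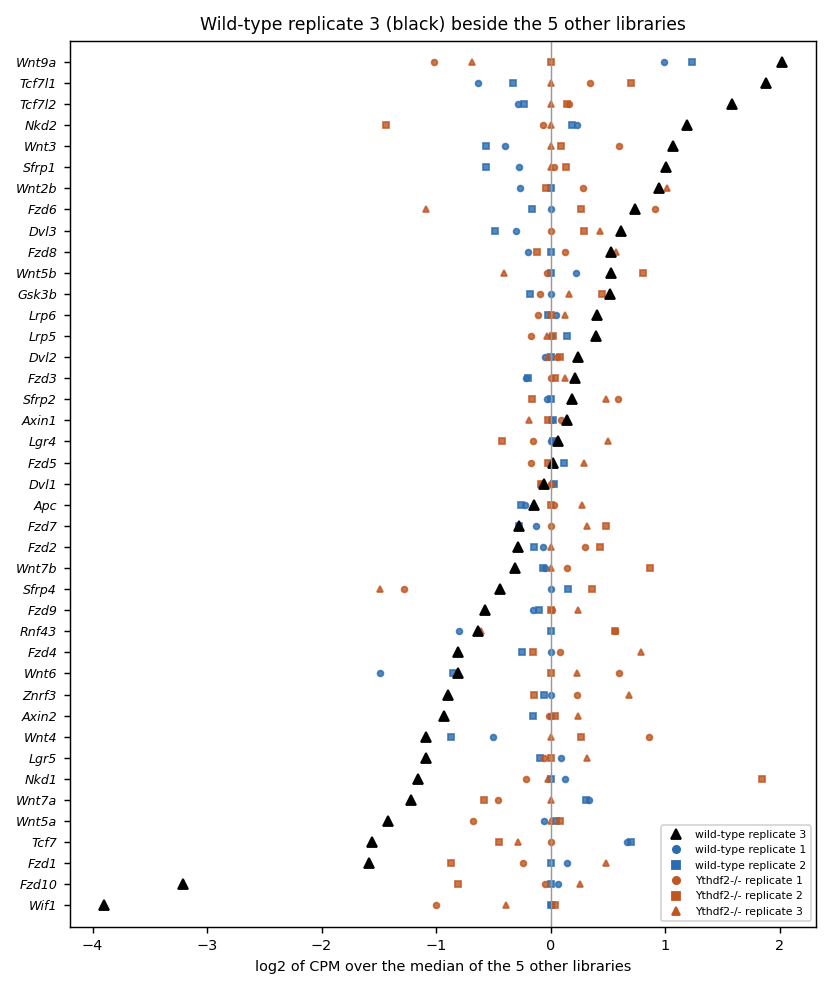
For each tested member, log2 of the CPM in each library over the median of the 5 libraries other than wild-type replicate 3, which is drawn in black; colours and shapes give the other libraries. Wild-type replicate 3 runs from Wnt9a, 4.06 times the median, down to Wif1, at 0.0668 times it, and lies outside the other 5 points for 28 of 41 members.

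Summed over all members of a role, the genotypes overlapped in every role, but for the cytoplasmic components, receptors, secreted inhibitors and nuclear factors they did so through wild-type replicate 3 alone. The cytoplasmic components summed to 1003, 956 and 1189 CPM in wild type and 1108, 1205 and 1278 CPM in Ythdf2-/-. The receptors summed to 641, 635 and 691 CPM in wild type and 674, 669 and 780 CPM in Ythdf2-/-, and the secreted inhibitors to 19.0, 17.9 and 35.1 CPM and to 20.6, 23.2 and 19.4 CPM. The nuclear factors summed to 41.1, 45.0 and 156.0 CPM in wild type and 60.0, 64.6 and 50.2 CPM in Ythdf2-/-. In these 4 roles wild-type replicates 1 and 2 lay below every Ythdf2-/- library, as they did for 18.9% of all single genes tested. The sums largely repeat their most abundant genes. Apc made up 535.1 to 775.2 CPM of the cytoplasmic sums and Fzd3 307.7 to 412.6 CPM of the receptor sums. Tcf7l1 and Tcf7l2 together made up most of the nuclear sums. The ligands summed to 293, 294 and 175 CPM in wild type and 260, 368 and 290 CPM in Ythdf2-/-. The R-spondin axis summed to 103.0, 102.0 and 67.2 CPM in wild type and 113.9, 96.8 and 150.4 CPM in Ythdf2-/-. The feedback genes summed to 87.0, 79.1 and 41.6 CPM in wild type and 76.5, 196.8 and 89.1 CPM in Ythdf2-/-.

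Of 52 further genes of the pathway, listed by function, 49 were tested. None passed an adjusted p of 0.05 in edgeR, and at an unadjusted p under 0.05 0 were higher (against 1.81% of all genes) and 2 lower in Ythdf2-/- (against 1.82%), Sp8 and Shisa2. Sp8, a transcription factor of forebrain patterning, had 76, 52 and 46 reads in wild type and 21, 12 and 6 in Ythdf2-/-, a log2 fold change of -2.21 (standard error 0.52, unadjusted p = 0.00467). Shisa2, which holds Fzd receptors back inside the cell, was at 8.56, 7.10 and 11.7 CPM in wild type and 4.69, 5.70 and 6.03 CPM in Ythdf2-/-, a log2 fold change of -0.73 (standard error 0.27, unadjusted p = 0.0332). The 49 genes had a median log2 fold change of 0.02, with 27 above 0 and 22 below. Their median became 0.07 when wild-type replicate 3 was left out, and then at an unadjusted p under 0.05 6 of the 49 were higher (against 8.03% of all genes) and 3 lower (against 8.58%). With all 6 libraries the genotypes did not overlap for 6 of them, with Ror1, Vangl1 and Tnfrsf19 higher in Ythdf2-/- (3 of 49, against 5.24%) and lower values for Csnk1d, Sp8 and Shisa2 (3 of 49, against 4.92%). Ctnnb1, which encodes β-catenin, was at 1129 to 1200 CPM in wild type and 1115 to 1160 CPM in Ythdf2-/-, and Wls, the carrier that brings Wnt proteins to the cell surface, at 187.8 to 217.5 and 185.0 to 254.9 CPM.

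The letters GGACT, the most common form of the site at which m6A is written, were counted in the transcripts of the members, as a property that the choice of members did not use. The 41 tested members had a median of 1.17 per kb of transcript, with quartiles of 0.735 and 1.67, and the genes tested had a median of 1.04, with quartiles of 0.641 and 1.5. Among the tested members that did not overlap between genotypes, the density was 2.41 per kb in Wnt6, 1.67 in Wnt4, 1.51 in Wnt9a, 1.31 in Fzd9, 0.996 in Nkd2, 0.882 in Wnt7b, 0.624 in Apc, 0.546 in Fzd2 and 0.221 in Fzd7, so that genes higher in Ythdf2-/- lay on both sides of the median of the genes tested. A match of these letters does not show that the site carries m6A.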

How the data were processed

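RNA-seq input libraries of 3 wild-type and 3 Ythdf2-/- neurosphere cultures were used, grouped and numbered by the sample labels. The authors used a strand-specific kit and deposited 1 table of raw read counts by gene symbol per library, with no scaling. The paper names TopHat and mm10, while the submitters' processing notes name Bowtie2 2.2.9, RSEM 1.2.15, featureCounts and mm10 in no order. The strand setting of the counting is not given in the sources used here, so the counts of Axin1, Dvl1, Fzd6, Gsk3b, Lrp5, Lrp6, Nkd2, Tcf7l1, Tcf7l2, Wnt5b, Wnt7a, Wnt7b and Wnt11, which share exon bases with a gene of the opposite strand, are uncertain. The deposited FPKM tables were not used.

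Genes that passed edgeR's filterByExpr (minimum count 10) were tested in R 4.3.3 with edgeR 4.0.16 (TMM scaling, robust glmQLFit and glmQLFTest), genotype as the only term, all genes in 1 fit and Benjamini-Hochberg adjustment over all of them. CPM used the same TMM factors, 0.988 to 1.03, and exon lengths came from the RefSeq annotation of GRCm38.p6. The script was tested on simulated data. The common biological coefficient of variation was 0.332. DESeq2 1.42.0, limma-voom (limma 3.58.1) with and without sample quality weights, relative log expression size factors, no filter, a replicate block, a term for Y-linked reads and each library left out were 13 alternatives, and a mean of at least 1 CPM was added after seeing the data.

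Named with values in every library were the 2 members of each role with the highest mean CPM, members with an unadjusted p under 0.05, members without overlap between genotypes, members 4-fold apart in wild-type replicate 3, and Axin2, Lef1, Nkd1, Lgr5, Znrf3 and Rnf43. Others were named after their values were seen. The members and lists were chosen with earlier results of these data known. Promoter windows came from RefSeq and transcripts from GENCODE M21. Tables were handled in Python 3.11.15 with pandas 2.3.3.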

Additional observations from a re-analysis of the deposited data

How the results depend on the processing

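Of 24 members followed, 16 kept their direction under every alternative that tested them, and Wnt6, Wnt9a and Nkd2 were not tested at a mean of at least 1 CPM. The count at an adjusted p under 0.05 was 1 with DESeq2, 4 with sample quality weights and 0 otherwise. The count at an unadjusted p under 0.05, 4 in the report (9.76% of members, against 3.63% of all genes), was 8 with DESeq2 (13.8%, against 5.57%), 17 with sample quality weights (41.5%, against 29.8%), 10 with a term for Y-linked reads (24.4%, against 11%), 2 with a mean of at least 1 CPM (5.13%, against 3.66%), and 3 to 13 with each library left out, the highest without wild-type replicate 3 (31%, against 16.6%). The median log2 fold change was 0.1927 with limma-voom and -0.0167 (without wild-type replicate 1) to 0.2381 (without wild-type replicate 3) with each library left out. Wild-type and Ythdf2-/- samples of the same number deviated from their group means in opposite directions (r = -0.248, -0.244 and -0.394). Samples of different numbers gave r = -0.192 to 0.399. Deviations from a mean of 3 libraries are tied to each other, so these values cannot show whether the numbers pair the samples. With the replicate block the unadjusted count was 2 (4.88%, against 1.4%), the median 0.1841 and the log2 fold change of Tcf7l1 0.1013. Among the 24 members followed, log2 fold changes turned in sign under limma-voom for Sfrp1 (0.0258) and Tcf7l1 (0.0839), and with the Y-linked term for Gsk3b (-0.0327). With quality weights, in which wild-type replicate 3 weighed 0.0901, they turned for Fzd10 (-0.0602), Sfrp1 (0.4593), Tcf7l1 (0.7348), Tcf7l2 (0.3572), Wif1 (-0.6833) and Wnt5a (-0.4389). With each library left out the ranges were -0.1715 to 0.7101 for Fzd10, -0.0905 to 0.2772 for Gsk3b, -0.2268 to 0.0001 for Lrp6, -0.4445 to 0.4651 for Sfrp1, -0.7817 to 0.8509 for Tcf7l1, -0.8318 to 0.3627 for Tcf7l2, -0.3789 to 0.5016 for Wif1 and -0.1581 to 0.4186 for Wnt5a. Beyond what the alternatives themselves drop or weigh down, the cause was not tested. Low counts limit the 21 members that were not tested.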
